A study of Rattus norvegicus with 18 samples.

Results

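Transcripts of 8 genes that encode enzymes of cholesterol synthesis, or the protein that holds this pathway's transcription factors in check, were followed in Rat1 fibroblasts with and without MYC and after knockdown of the aryl hydrocarbon receptor (AHR). The genes were chosen by symbol among the 13188 genes of the expression table, with earlier results of these data known. They are Hmgcs1, Mvk, Mvd, Idi1, Fdps, Fdft1, Sqle and Insig1. RNA was sequenced from 18 libraries of HO15.19, a Rat1 fibroblast line with both copies of myc disrupted, in 6 groups of 3 libraries. All groups carry this disruption. The groups were myc-/- cells, the same cells carrying human MYC (myc-/- + MYC), each of these with a control siRNA (myc-/- siCtrl and myc-/- + MYC siCtrl), and MYC-expressing cells with 1 of 2 siRNAs against AHR (siAHR-2 and siAHR-5). The siRNA was used at 40 nM and the cells were harvested after 48 h. Human MYC was driven by a retroviral promoter in stably infected cells of this 1 line, and every AHR knockdown was made in cells with MYC. The labels do not say that the 3 libraries of a group came from separate cultures, so the p-values measure the spread between libraries, which may be technical.

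Cells make cholesterol from acetyl-CoA through mevalonate, and the isoprenoids of the same route also feed ubiquinone, dolichol and prenylated proteins. The genes of the route are known to be switched on together by SREBP-2 when sterols run low. SREBP travels from the endoplasmic reticulum to the Golgi with the escort protein SCAP, where a pair of proteases release its active part, and INSIG proteins retain the complex when sterols are plentiful. INSIG1 is itself a target of SREBP, so that its transcript is widely read as a gauge of the pathway.

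Promoters were taken from a table of RefSeq (rat GRCr8) in which 6 of the 8 genes were matched (Fdft1 and Sqle were not), and the 250 bases before the start were searched on both strands for 4 short motifs. The core letters of NF-Y, a factor known to work beside SREBP at sterol genes, are CCAAT, and they were found in 6 of 6 promoters, against 34% of the 33469 promoters of the table and 35.3% of the 10312 promoters of genes measured here. The E-box bound by MYC, CACGTG, was found in 1 of 6, in Insig1, against 5.59% of all promoters and 7.66% of those of measured genes. The AHR core GCGTG was found in 3 of 6 (Mvd, Idi1 and Insig1), against 25.9% and 42%. The sterol element searched as TCACNCCAC was found in none of the 6, against 0.974% and 0.989%. These letters are descriptions of sequence, and binding was not measured. The promoters below belong to the 4 genes that passed the cutoffs in a comparison of AHR knockdown or in both comparisons of MYC. They lie at chr2:53382054-53382303 on the plus strand (Hmgcs1) and, on the minus strand, at chr17:66547525-66547774 (Idi1), chr2:176804817-176805066 (Fdps) and chr4:8057770-8058019 (Insig1). Each is written 5′ to 3′ in the direction of transcription, and capitals mark CCAAT in either orientation and the E-box.
Hmgcs1: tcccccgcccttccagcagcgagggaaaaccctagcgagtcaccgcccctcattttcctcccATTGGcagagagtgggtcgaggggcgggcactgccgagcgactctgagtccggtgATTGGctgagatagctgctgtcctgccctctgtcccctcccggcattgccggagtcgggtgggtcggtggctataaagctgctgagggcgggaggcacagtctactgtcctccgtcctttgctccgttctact
Idi1: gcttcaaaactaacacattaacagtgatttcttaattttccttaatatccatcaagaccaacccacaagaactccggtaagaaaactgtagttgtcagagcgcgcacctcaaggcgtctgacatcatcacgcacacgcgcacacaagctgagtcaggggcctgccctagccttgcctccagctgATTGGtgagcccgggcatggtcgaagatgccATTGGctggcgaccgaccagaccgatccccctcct
Fdps: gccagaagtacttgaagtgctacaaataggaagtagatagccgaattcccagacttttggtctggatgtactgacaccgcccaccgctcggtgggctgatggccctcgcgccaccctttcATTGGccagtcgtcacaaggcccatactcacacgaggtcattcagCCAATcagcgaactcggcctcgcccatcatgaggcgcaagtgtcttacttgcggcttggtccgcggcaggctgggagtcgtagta
Insig1: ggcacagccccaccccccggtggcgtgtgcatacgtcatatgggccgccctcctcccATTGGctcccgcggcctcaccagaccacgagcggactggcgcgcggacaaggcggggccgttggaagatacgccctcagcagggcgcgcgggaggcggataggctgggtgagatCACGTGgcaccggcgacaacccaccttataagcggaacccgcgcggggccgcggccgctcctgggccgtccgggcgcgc
The CCAAT letters lay 129 to 133 and 184 to 188 bases before the start of Hmgcs1, and 31 to 35 and 62 to 66 bases before that of Idi1. In Fdps they lay 81 to 85 and 126 to 130 bases before the start. Insig1 had 1 such match, 189 to 193 bases before the start, and its E-box lay 74 to 79 bases before the start.

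The deposited values are normalized expression on a log2 scale, in 2 sets of libraries on different scales. The smaller set (6 libraries, the 6-library set) holds the groups myc-/- + MYC and myc-/- siCtrl, while the larger (the 12-library set) holds the other 4 groups, so groups were compared only within a set. Cells with and without MYC also differ in their transfection label within either set, and MYC and transfection cannot be told apart there. The columns of the 6-library set are headed control and Myc and name no siRNA, so that the control siRNA of its myc-/- cells rests on the sample labels alone. The read depth of the libraries is unknown. In bulk RNA, fewer cells that express a gene and less RNA per cell cannot be told apart. Ahr, the target of the siRNAs, ranged from 13.22 to 13.34 in myc-/- + MYC siCtrl, from 11.97 to 12.03 with siAHR-2 and from 11.76 to 11.95 with siAHR-5. Rat Myc was listed at 8.01 to 10.94 in all 18 libraries and was lower in cells with MYC, by a log2FC of -1.26 in the 6-library set (limma adjusted p = 4.21e-08) and -2.68 in the 12-library set (limma adjusted p = 6.02e-07). Which part of the disrupted gene these reads cover is not known, so that it does not check the labels. Of 7 fibroblast markers, 6 stayed at 11.34 or above in every library and Col1a2 lay between 3.64 and 4.13. The markers of epithelial, endothelial, leukocyte, adipocyte and hepatocyte cells that were measured stayed at or below 9.05. The summed level of 3 epithelial markers (log2) was higher with MYC in both sets, from 6.43 to 6.55 in myc-/- siCtrl against 7.87 to 7.97 in myc-/- + MYC, and from 7.73 to 7.89 in myc-/- against 8.75 to 9.09 in myc-/- + MYC siCtrl. Over the 18 libraries, Krt8 was at 6.02 to 9.05, Cdh1 at 3.61 to 4.31 and Epcam at 1.22 to 2.42. The sum is therefore mostly Krt8. The adipocyte marker Adipoq was lower with MYC in the 6-library set (5.76 against 6.78 to 7.01). Smaller shifts without overlap in that set were a lower endothelial sum with MYC (7.64 to 7.66 against 7.79 to 7.92) and a higher leukocyte sum (7.52 to 7.71 against 7.26 to 7.46). The hepatocyte marker Apoa1 was also higher there with MYC (4.45 to 4.59 against 4.40 to 4.44). The leukocyte sum was higher with siAHR-2 (7.44 to 7.55) and the endothelial sum with siAHR-5 (7.56 to 7.79) than in their control group (7.10 to 7.43 and 7.38 to 7.46). The summed level of the 7 fibroblast markers (log2) moved with MYC, from 20.76 to 20.78 in myc-/- siCtrl against 19.67 to 19.74 in myc-/- + MYC, and from 21.94 to 22.17 in myc-/- against 20.18 to 20.21 in myc-/- + MYC siCtrl, and it was also lower with siAHR-2 (19.94 to 19.98) and siAHR-5 (19.90 to 19.92) than in their control group. The part of these markers in the results below was not tested.

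Whether MYC changes these genes was first compared in the 6-library set. Transcripts of 4 enzymes rose in cells with MYC, 3 of them in the steps that build isoprene units (Hmgcs1, Mvk and Idi1) and 1 that joins these units (Fdps). The rise was largest for Mvk, at 1.95-fold. A gene passed when its log2 fold change (log2FC) corresponded to at least 1.5-fold in either direction, with a limma adjusted p of at most 0.01. These 4 of 8 genes compare with 26.8% of all genes past both cutoffs and 12.5% past them in the higher direction. The median log2FC of the 8 genes was 0.54, against -0.0038 for all genes.

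Hmgcs1, which encodes the synthase that makes HMG-CoA, stood at 13.18, 13.17 and 13.24 in the 3 myc-/- siCtrl libraries, and in cells with MYC it stood at 13.79, 13.90 and 13.88, a log2FC of 0.66 (SE 0.0365, limma adjusted p = 1.69e-08). Mvk, mevalonate kinase, stood at 10.37, 10.47 and 10.55 without MYC and at 11.41, 11.42 and 11.45 with it, a log2FC of 0.96 (SE 0.0506, limma adjusted p = 1.11e-08). For both genes every library with MYC lay above every library without it. Idi1, the isomerase that interconverts both isoprene units, was at 10.42, 10.25 and 10.39 without MYC and at 10.96, 11.02 and 11.12 with it, a log2FC of 0.68 (SE 0.0587, limma adjusted p = 8.31e-07). Fdps, farnesyl diphosphate synthase, went from 13.71, 13.74 and 13.74 to 14.39, 14.53 and 14.49, a log2FC of 0.74 (SE 0.0360, limma adjusted p = 5.58e-09). The spread within either group was small beside the gap between them for each of these genes.

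The other 4 genes did not reach the fold cutoff. Mvd, the decarboxylase between Mvk and Idi1 in the route, ranged from 11.25 to 11.36 without MYC and from 11.63 to 11.82 with it, a log2FC of 0.42 (limma adjusted p = 1.74e-05). Fdft1, which makes squalene, had a log2FC of 0.18 (limma adjusted p = 0.00392). Sqle, which oxidizes squalene, had a log2FC of -0.13 (limma adjusted p = 0.0410). Insig1 was at 12.79, 12.79 and 12.83 without MYC and at 12.53, 12.71 and 12.66 with it, a log2FC of -0.17 (limma adjusted p = 0.00457). Of the 8 genes, 6 thus had higher values with MYC, and Sqle and Insig1 had slightly lower ones. The groups did not overlap for any of the 8 genes, against 78.8% of all genes. At an adjusted p below 0.05 in limma with no fold cutoff, 8 of 8 passed, against 76.2% of all genes. Sqle no longer did without any 1 of the myc-/- siCtrl libraries or without myc-/- + MYC replicate 1 (-0.06). Over these fits its limma adjusted p reached 0.149. It also did not pass without the mean-variance trend or after quantile normalization (-0.04, limma adjusted p = 0.462), where Insig1 had -0.11 (limma adjusted p = 0.0512).

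**Figure D1:**
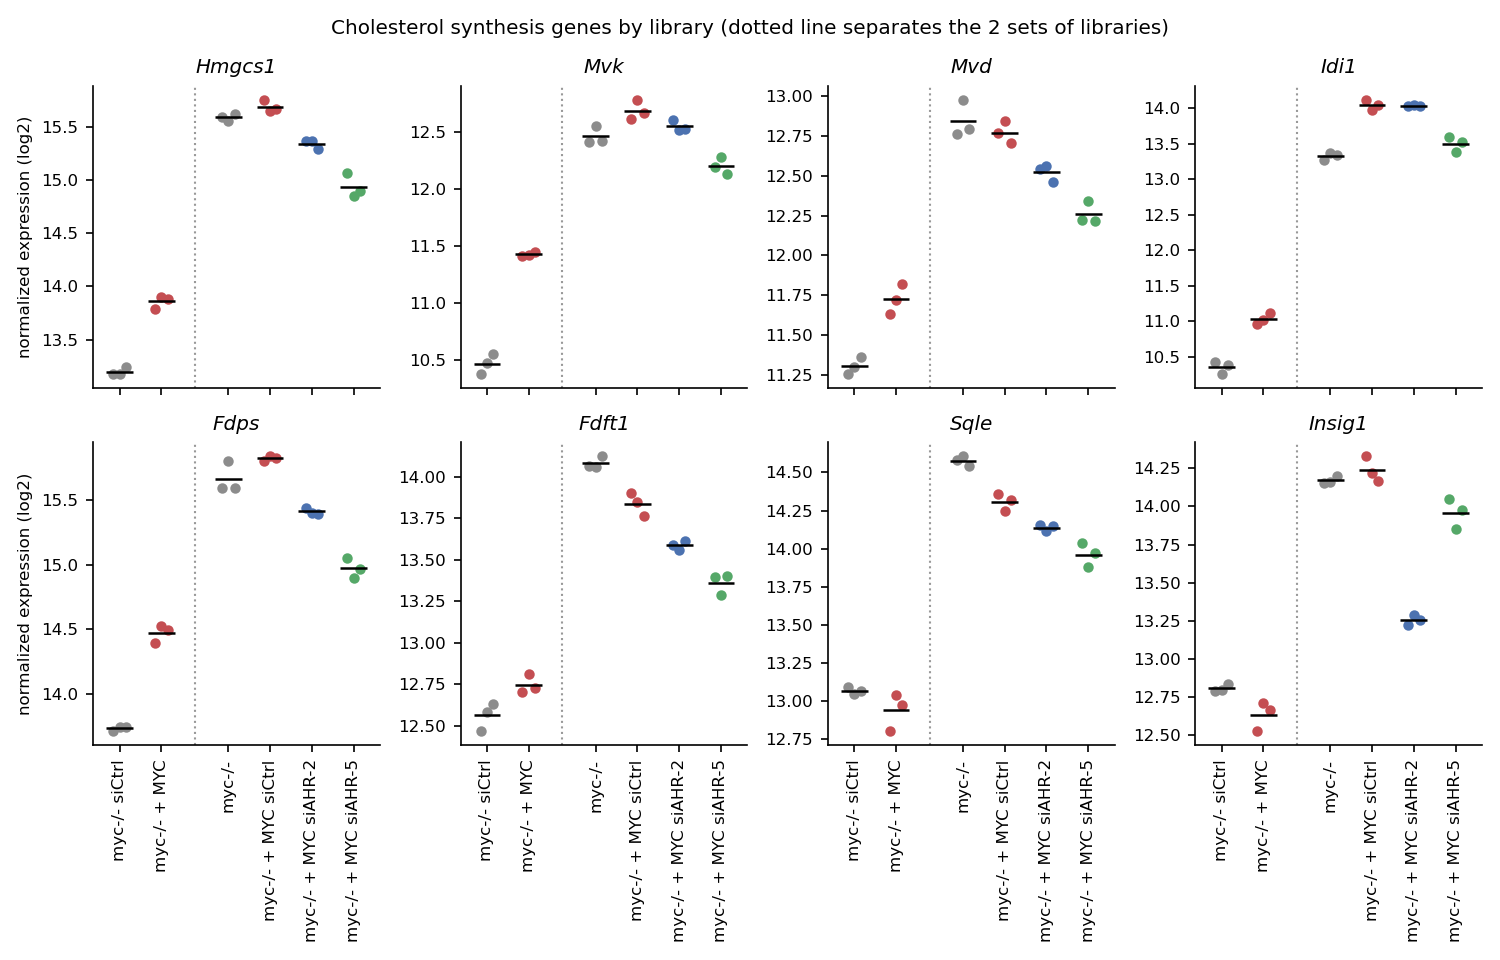
Normalized expression (log2) of the 8 genes in each of the 18 libraries by group, each point a library and each bar a group mean, with the 6-library set left and the 12-library set right of the dotted line and a separate axis for each gene. Insig1 is lowest within the 12-library set with siAHR-2 (13.22 to 13.28), and Hmgcs1 and Fdps are lowest there with siAHR-5.

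In the 12-library set, the same question was put to myc-/- + MYC siCtrl against myc-/-. Of the 8 genes, Idi1 alone passed both cutoffs, against 25.5% of all genes past them and 10.8% past them in the higher direction. Idi1 was at 13.28, 13.37 and 13.35 without MYC and at 14.12, 13.98 and 14.05 with it, a log2FC of 0.72 (SE 0.0467, limma adjusted p = 3.93e-05), a fold of 1.65. The 3 libraries with MYC lay well above the 3 without it.

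The genes that had risen beside Idi1 in the 6-library set did not pass here. Hmgcs1 was at 15.59, 15.55 and 15.62 without MYC and at 15.75, 15.64 and 15.67 with it, a log2FC of 0.10 (95% interval 0.0033 to 0.20, limma adjusted p = 0.0671). Mvk was at 12.41, 12.56 and 12.43 and then at 12.62, 12.79 and 12.66, a log2FC of 0.22 (95% interval 0.07 to 0.38, limma adjusted p = 0.0188). Fdps had a log2FC of 0.16 (95% interval 0.0036 to 0.31, limma adjusted p = 0.0693), and its myc-/- libraries at 15.60, 15.81 and 15.59 overlapped those with MYC at 15.81, 15.84 and 15.83. The overlap came from myc-/- replicate 2, which over all genes differed from the other 2 by a median of 0.0886 and 0.0866 (log2), against 0.0357 between those, and without it Fdps had a log2FC of 0.23 (limma adjusted p = 2.94e-04). The intervals of these genes end below the fold cutoff. Quantile normalization moved Hmgcs1 to 0.29 (limma adjusted p = 2.51e-04) and Fdps to 0.33 (limma adjusted p = 0.00232), above these intervals and still under the fold cutoff. Fdft1 had a log2FC of -0.24 (limma adjusted p = 0.00302) and Sqle of -0.27 (limma adjusted p = 0.00115), while Mvd had -0.07 (limma adjusted p = 0.395) and Insig1 0.07 (limma adjusted p = 0.262). Over the alternatives, Insig1 ranged from 0.02 to 0.17 (limma adjusted p from 0.0153 to 0.631) and Sqle from -0.29 to -0.15. The groups did not overlap for 5 of the 8 genes (Hmgcs1, Mvk, Idi1, Fdft1 and Sqle), against 70.5% of all genes. Without the fold cutoff, 4 of 8 had a limma adjusted p below 0.05, against 64.7% of all genes, and this count was 3 without myc-/- replicate 1 or 3 or myc-/- + MYC siCtrl replicate 2, and 7 after quantile normalization. As deposited, the median log2FC of the 8 genes was 0.08, and it was higher after quantile normalization.

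How far both MYC effects differ (12-library set minus 6-library set) was tested in a single limma model of 12 libraries. Mvk passed both cutoffs with a difference of -0.74 (SE 0.0817, limma adjusted p = 2.35e-06), against 16.5% of all genes and 9.67% in the lower direction. Fdps, with a difference of -0.58 (limma adjusted p = 8.58e-06), and Hmgcs1, with -0.56 (limma adjusted p = 1.20e-06), lay just short of the fold cutoff, and either or both passed it when 1 of 8 libraries was left out. For Mvd the difference was -0.49 (limma adjusted p = 2.70e-04) and for Fdft1 -0.43 (limma adjusted p = 1.09e-04). Idi1 had a difference of 0.04 (95% interval -0.13 to 0.21, limma adjusted p = 0.673). Sqle had -0.14 (limma adjusted p = 0.121) and Insig1 0.24 (limma adjusted p = 0.00984). Without the fold cutoff, 6 of 8 had a limma adjusted p below 0.05, against 54.9% of all genes. The log2FC of Mvk with MYC was therefore smaller in the 12-library set, and for Idi1 the 2 values differed by less than their error. The sets differ in scale and, by the labels, in which group was transfected. These cannot be told apart from each other or from a difference in the effect of MYC.

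Knockdown of AHR in cells with MYC was compared next, for each siRNA against the same 3 myc-/- + MYC siCtrl libraries, which also serve the MYC comparison of the 12-library set. With siAHR-2, Insig1 fell 1.98-fold and was the only 1 of the 8 genes past both cutoffs. Such calls were rare in this comparison, at 0.47% of all genes and 0.311% in the lower direction. Insig1 was at 14.33, 14.22 and 14.16 in the control libraries and at 13.22, 13.28 and 13.26 with siAHR-2, a log2FC of -0.98 (SE 0.0456, limma adjusted p = 3.89e-04). The highest library with siAHR-2 lay far below the lowest control library. Over 15 alternatives its limma adjusted p ranged from 2.30e-08 to 0.0126. In 1 of them, with the replicate number as a block, Insig1 no longer passed at the same log2FC, and 0 of all 13188 genes did.

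The 7 enzymes had smaller differences with siAHR-2, all with a log2FC below 0, except that of Idi1 after quantile normalization or without 1 control library, against 46.6% of all genes. Fdps was at 15.81, 15.84 and 15.83 in control libraries and at 15.44, 15.40 and 15.40 with siAHR-2, a log2FC of -0.41 (SE 0.0178, limma adjusted p = 3.73e-04). Hmgcs1 was at 15.75, 15.64 and 15.67 and then at 15.36, 15.37 and 15.29, a log2FC of -0.35 (SE 0.0368, limma adjusted p = 0.00249). For both, the groups were apart by more than the spread within them, but the size stayed under the fold cutoff. Fdft1 had a log2FC of -0.25 (limma adjusted p = 0.00725), Mvd of -0.25 (limma adjusted p = 0.0128), Sqle of -0.17 (limma adjusted p = 0.0145) and Mvk of -0.14 (limma adjusted p = 0.103). Idi1 was at 14.03, 14.04 and 14.04 with siAHR-2, inside the range of its control libraries (13.98 to 14.12), with a log2FC of -0.01 (95% interval -0.11 to 0.08, limma adjusted p = 0.848). The groups did not overlap for 7 of the 8 genes, all lower with siAHR-2, against 43.3% of all genes in either direction and 21.8% in the lower direction. Without the fold cutoff, 6 of 8 had a limma adjusted p below 0.05, against 29.3% of all genes. The median log2FC of the 8 genes was -0.25.

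With siAHR-5, Hmgcs1 fell 1.68-fold and Fdps 1.81-fold, and these 2 of 8 genes passed both cutoffs, against 2.32% of all genes and 0.849% in the lower direction. Hmgcs1 was at 15.07, 14.85 and 14.90 with siAHR-5, below its control libraries (15.64 to 15.75), a log2FC of -0.75 (SE 0.0641, limma adjusted p = 7.65e-04). Fdps was at 15.05, 14.90 and 14.97, below its control libraries (15.81 to 15.84), a log2FC of -0.85 (SE 0.0423, limma adjusted p = 2.76e-04). Every library with siAHR-5 lay below every control library for both genes.

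The other enzymes lay closer to the fold cutoff with siAHR-5 without reaching it. Idi1 was at 13.60, 13.39 and 13.52 against 14.12, 13.98 and 14.05 in control libraries, a log2FC of -0.54 (limma adjusted p = 0.00218), and it passed the fold cutoff after median centring (-0.60) or without siAHR-5 replicate 1 (-0.59). Mvd had a log2FC of -0.51 (limma adjusted p = 0.00130), Mvk of -0.48 (limma adjusted p = 0.00226), Fdft1 of -0.48 (limma adjusted p = 0.00124) and Sqle of -0.35 (limma adjusted p = 0.00401). Insig1 was at 14.05, 13.85 and 13.98, a log2FC of -0.28 (limma adjusted p = 0.0207). All 8 genes had a log2FC below 0, against 40.7% of all genes, and their groups did not overlap, against 50.5% of all genes in either direction and 22.2% in the lower direction. Without the fold cutoff, 8 of 8 had a limma adjusted p below 0.05, against 39.2% of all genes. This count was 7 without myc-/- + MYC siCtrl replicate 1 or 2 or siAHR-5 replicate 3, where Insig1 did not pass (limma adjusted p up to 0.0606). The median log2FC of the 8 genes was -0.50, against 0.01 for all genes.

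**Figure D2:**
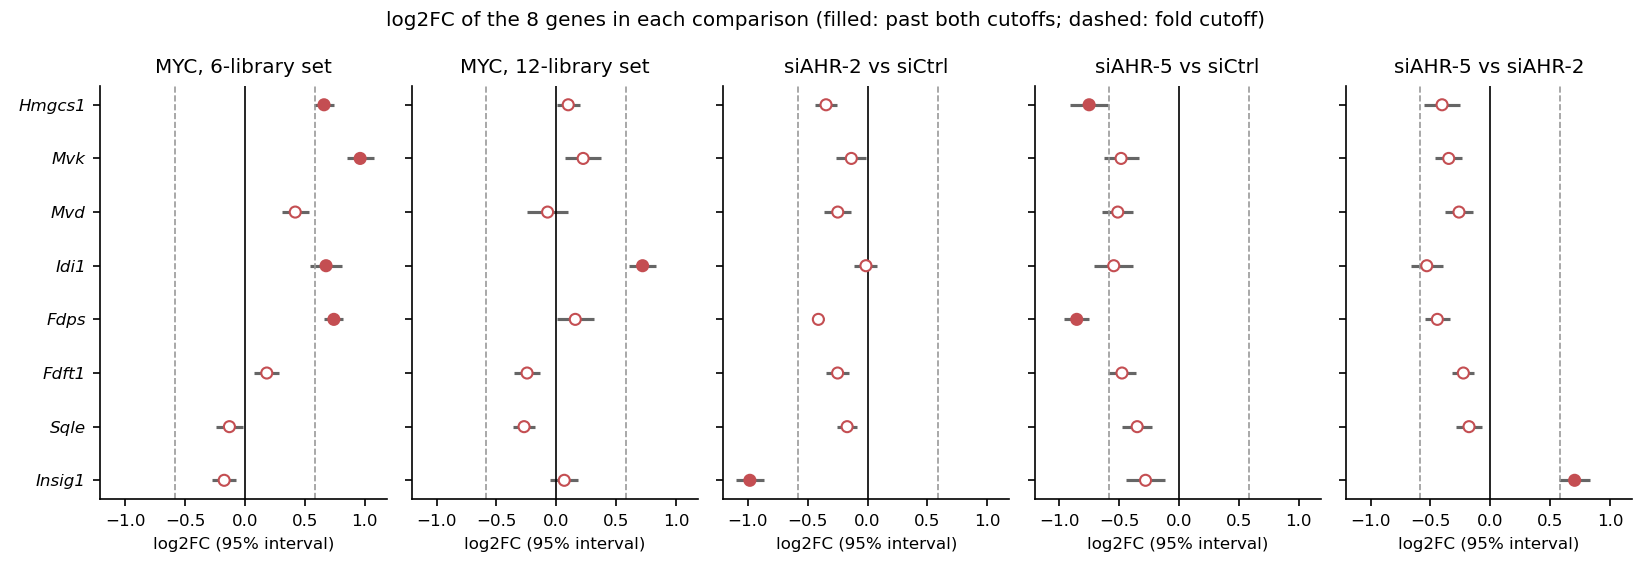
log2FC of the 8 genes in 5 comparisons from limma, with points for the estimate, bars for the 95% interval (hidden by the point where short), filled points for genes past both cutoffs and dashed lines at the 1.5-fold cutoff. With siAHR-2 the filled point is Insig1 (-0.98), while with siAHR-5 the filled points are Hmgcs1 (-0.75) and Fdps (-0.85).

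The 2 siRNAs were then compared directly, since both lowered Ahr, siAHR-2 by a log2FC of -1.29 (limma adjusted p = 2.37e-04) and siAHR-5 by one of -1.39 (limma adjusted p = 2.16e-04), with a difference of -0.11 (95% interval -0.25 to 0.04, limma adjusted p = 0.211). Insig1 was higher with siAHR-5 than with siAHR-2 by a log2FC of 0.70 (SE 0.0524, limma adjusted p = 4.33e-04), the 1 of 8 genes past both cutoffs, against 2.18% of all genes and 1.33% in the higher direction. The 7 enzymes lay on the opposite side, lower with siAHR-5 by 0.18 to 0.53 on the log2 scale, and none of them reached the fold cutoff. Among these, the difference was -0.53 for Idi1 (limma adjusted p = 0.00116), -0.44 for Fdps (limma adjusted p = 9.43e-04) and -0.40 for Hmgcs1 (limma adjusted p = 0.00426). The libraries of both siRNAs did not overlap for any of the 8 genes, against 49.5% of all genes, and 8 of 8 had a limma adjusted p below 0.05, against 39.1%. Whether the differences between the siRNAs come from AHR was not tested.

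The genes that process SREBP were described as a list of 6 (Srebf1, Srebf2, Scap, Mbtps1, Mbtps2 and Insig2). In the 6-library set, 2 of the 6 rose with MYC, 0 fell and the median log2FC was 0.44, and in the 12-library set the counts were 2 and 0 with a median of 0.48. Among all genes, 12.5% rose and 14.3% fell in the 6-library set and 10.8% and 14.7% in the 12-library set. In the 12-library set, 3 of the 6 rose after quantile normalization or median centring or without myc-/- replicate 3 or myc-/- + MYC siCtrl replicate 3, and 1 fell without replicate 2 of either group, while in the 6-library set 4 rose after quantile normalization. Srebf1, which encodes SREBP-1, was at 12.04, 12.02 and 11.98 in myc-/- siCtrl and at 13.33, 13.41 and 13.37 in myc-/- + MYC, a log2FC of 1.35 (SE 0.0344, limma adjusted p = 3.00e-11). In the 12-library set it was at 12.49, 12.49 and 12.51 without MYC and at 13.54, 13.61 and 13.47 with it, a log2FC of 1.04 (SE 0.0418, limma adjusted p = 5.74e-06). Srebf1 thus rose with MYC in both sets. Mbtps2, a Golgi protease that cleaves SREBP, rose by a log2FC of 1.03 (limma adjusted p = 5.19e-09) in the smaller and 0.76 (limma adjusted p = 0.00105) in the larger set. Srebf2, which encodes SREBP-2, had a log2FC of 0.51 and 0.41, under the fold cutoff in both sets. Insig2 had 0.15 and 0.55.

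Scap, the escort of SREBP, differed between the siRNAs. It was at 14.40, 14.45 and 14.39 in myc-/- + MYC siCtrl, at 14.58, 14.54 and 14.51 with siAHR-2 and at 13.57, 13.63 and 13.57 with siAHR-5. It fell with siAHR-5 by a log2FC of -0.82 (SE 0.0263, limma adjusted p = 1.13e-04), the 1 of 6 genes of this list past the cutoffs there, against 2.32% of all genes and 0.849% in the lower direction. With siAHR-2 its log2FC was 0.13 (limma adjusted p = 0.0155), and the direct comparison of siAHR-5 with siAHR-2 gave -0.96 (SE 0.0258, limma adjusted p = 5.21e-05). All 3 libraries with siAHR-5 lay below all others of the set. With siAHR-2, 0 of the 6 genes passed both cutoffs in limma, and 4 had an unadjusted p under 0.05, against 40.4% of all genes. Insig2, which also retains SCAP, had a log2FC of -0.27 with siAHR-2 and 0.13 with siAHR-5. With MYC, Scap had a log2FC of -0.25 in the 6-library set and -0.58 in the 12-library set, just short of the fold cutoff.

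**Figure D3:**
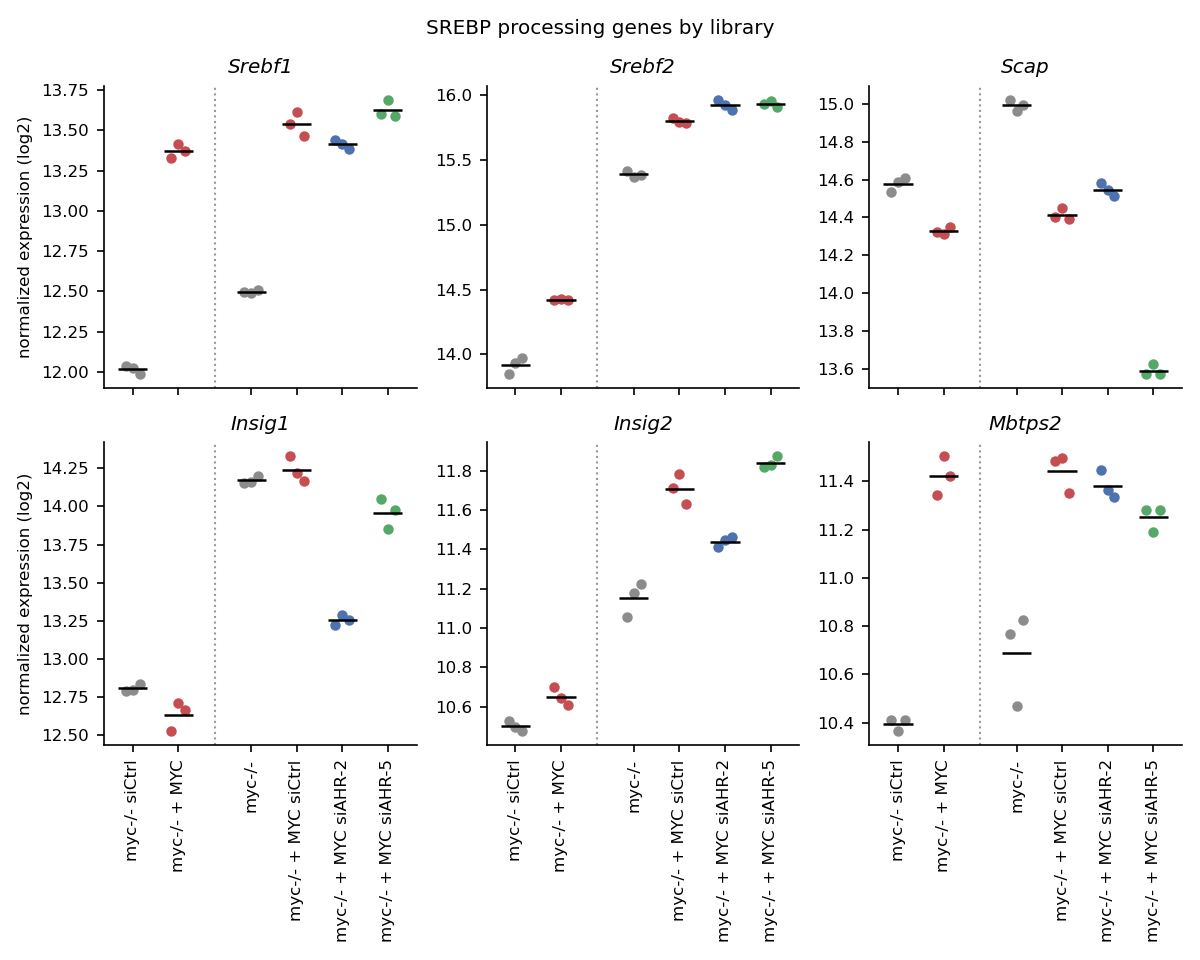
Normalized expression (log2) of Insig1 and 5 genes that process SREBP in each library by group, each point a library and each bar a group mean, with the 6-library set left and the 12-library set right of the dotted line and a separate axis for each gene. Scap is low with siAHR-5 (13.57 to 13.63) and Insig1 with siAHR-2 (13.22 to 13.28), while Srebf1 and Mbtps2 are higher with MYC in both sets.

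Among the enzymes of the sterol arm after squalene, 1 of 9 genes rose with MYC in the 6-library set and 0 fell, with a median log2FC of 0.07, where 12.5% of all genes rose and 14.3% fell. In the 12-library set, 0 rose and 1 fell, with a median of -0.29, where 10.8% of all genes rose and 14.7% fell, and 1 rose after quantile normalization or median centring or without myc-/- replicate 1. The median there was -0.11 after quantile normalization, and that of the 6-library set was 0.02 after median centring. As deposited, none of these shares exceeded that over all genes. Msmo1, the methyl sterol oxidase, was at 12.11, 12.10 and 12.11 without MYC and at 13.14, 13.38 and 13.31 with it in the 6-library set, a log2FC of 1.17 (limma adjusted p = 2.52e-09), against -0.10 in the 12-library set. Tm7sf2, a sterol reductase, was at 10.89, 11.05 and 10.90 without MYC and at 9.13, 9.23 and 9.10 with it in the 12-library set, a log2FC of -1.79 (limma adjusted p = 4.00e-06), against 0.07 in the 6-library set. The test of the difference between sets passed both cutoffs for 4 of these 9 genes, lower in the 12-library set for Lss, Tm7sf2 and Msmo1 and higher for Lbr, against 16.5% of all genes and 9.67% in the lower direction. Lbr, a nuclear envelope protein with sterol reductase activity, had a log2FC of -0.04 and 0.56 with MYC. With siAHR-2 it was at 13.72, 13.78 and 13.72 against 14.36, 14.30 and 14.31 in control libraries, a log2FC of -0.58, just short of the fold cutoff, which it passed after median centring or without 1 of 3 libraries, and with siAHR-5 it was -0.08.

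In the comparisons with AHR knockdown, 0 of these 9 sterol arm genes passed both cutoffs in limma with either siRNA, while 6 of 9 had an unadjusted p under 0.05 with siAHR-2 and 6 of 9 with siAHR-5, against 40.4% and 47.8% of all genes. Their median log2FC was -0.16 with siAHR-2, where 7 of 9 were below 0 (6 to 8 over the alternatives), and -0.25 with siAHR-5, where 9 of 9 were below 0 (8 to 9 over the alternatives). Among all genes, 46.6% were below 0 with siAHR-2 and 40.7% with siAHR-5. Of the 2 genes of the early steps, Acat2, which condenses acetyl-CoA in the cytosol, fell with siAHR-5, from 13.85, 13.85 and 13.77 to 13.28, 13.09 and 13.18, a log2FC of -0.63 (SE 0.0539, limma adjusted p = 7.59e-04), where 2.32% of all genes passed both cutoffs and 0.849% in the lower direction. Its log2FC with siAHR-2 was -0.40. Pmvk, the kinase after Mvk in the route, had a log2FC of 0.08 with siAHR-2 and -0.05 with siAHR-5, and neither early gene passed with MYC, where Acat2 had 0.24 and -0.24 and Pmvk -0.24 and 0.18.

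Of 7 measured genes of the other isoprenoid branches, 2 rose and 1 fell with MYC in the 6-library set, with a median log2FC of 0.44, and 2 rose and 0 fell in the 12-library set, with a median of 0.30. Among all genes, 12.5% rose and 14.3% fell in the 6-library set and 10.8% and 14.7% in the 12-library set. The count of 2 in the 12-library set was 3 after quantile normalization or median centring or without myc-/- replicate 2 or myc-/- + MYC siCtrl replicate 3, and 1 without myc-/- replicate 3. In the 6-library set, 1 rose after median centring, which took Fnta to 0.57, and 0 fell without myc-/- + MYC replicate 1, where Pggt1b had -0.57. Pdss2, a subunit of the synthase that makes the ubiquinone side chain, rose in both, from 9.65, 9.64 and 9.54 to 10.95, 10.91 and 10.77 (log2FC 1.26, limma adjusted p = 3.88e-09) and from 10.47, 10.60 and 10.65 to 11.83, 11.76 and 11.81 (log2FC 1.23, limma adjusted p = 1.11e-05). Coq2, which attaches that side chain, rose by 0.63 in the 12-library set (limma adjusted p = 6.53e-04) and had 0.44 in the 6-library set. Fnta, a subunit of protein prenyltransferases, rose by 0.61 in the 6-library set (limma adjusted p = 1.25e-08), and Pggt1b, a subunit of one of these transferases, fell there with a log2FC of -0.63 (limma adjusted p = 2.12e-06), while they had 0.30 and -0.15 in the 12-library set. With either siRNA against AHR, 0 of the 7 passed both cutoffs in limma, with 4 at an unadjusted p under 0.05 for siAHR-2 and 3 for siAHR-5, where 40.4% and 47.8% of all genes were.

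Of 8 genes of sterol efflux, esterification and sensing, 0 rose and 3 fell with MYC in the 6-library set, and 0 rose and 1 fell in the 12-library set, with medians of -0.23 and -0.07, where 12.5% and 10.8% of all genes rose and 14.3% and 14.7% fell. In the 6-library set, 1 of the 8 rose after quantile normalization or without myc-/- siCtrl replicate 2, and quantile normalization brought the medians to -0.08 and -0.04. Abca1, a cholesterol exporter, fell in both, with a log2FC of -0.80 (limma adjusted p = 1.64e-09) in the 6-library set and, in the 12-library set, of -0.73 (limma adjusted p = 0.00294), where it no longer passed without any single one of 5 of the 6 libraries (adjusted p up to 0.0163). Abcg1, also an exporter, was at 9.14, 9.32 and 9.38 without MYC and at 6.63, 6.67 and 6.64 with it in the 6-library set, a log2FC of -2.64 (limma adjusted p = 4.91e-11). In the 12-library set it was between 5.50 and 5.76 in every library, with a log2FC of 0.00. At this low level a fall may not be measurable, so the value of 0.00 does not show that a response was absent. The difference from the 6-library set was 2.64 (limma adjusted p = 6.25e-11) and carries the same limit. Ch25h, which makes an oxysterol, fell in the 6-library set with a log2FC of -0.79 (limma adjusted p = 8.19e-07) and had -0.39 in the 12-library set. Mylip, a ubiquitin ligase induced by LXR, had 0.57 and -0.06, with a difference of -0.63 (limma adjusted p = 6.44e-07). With either siRNA against AHR, 0 of the 8 passed both cutoffs in limma, with 3 at an unadjusted p under 0.05 for siAHR-2 and 3 for siAHR-5, no larger a share than among all genes (40.4% and 47.8%).

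**Figure D4:**
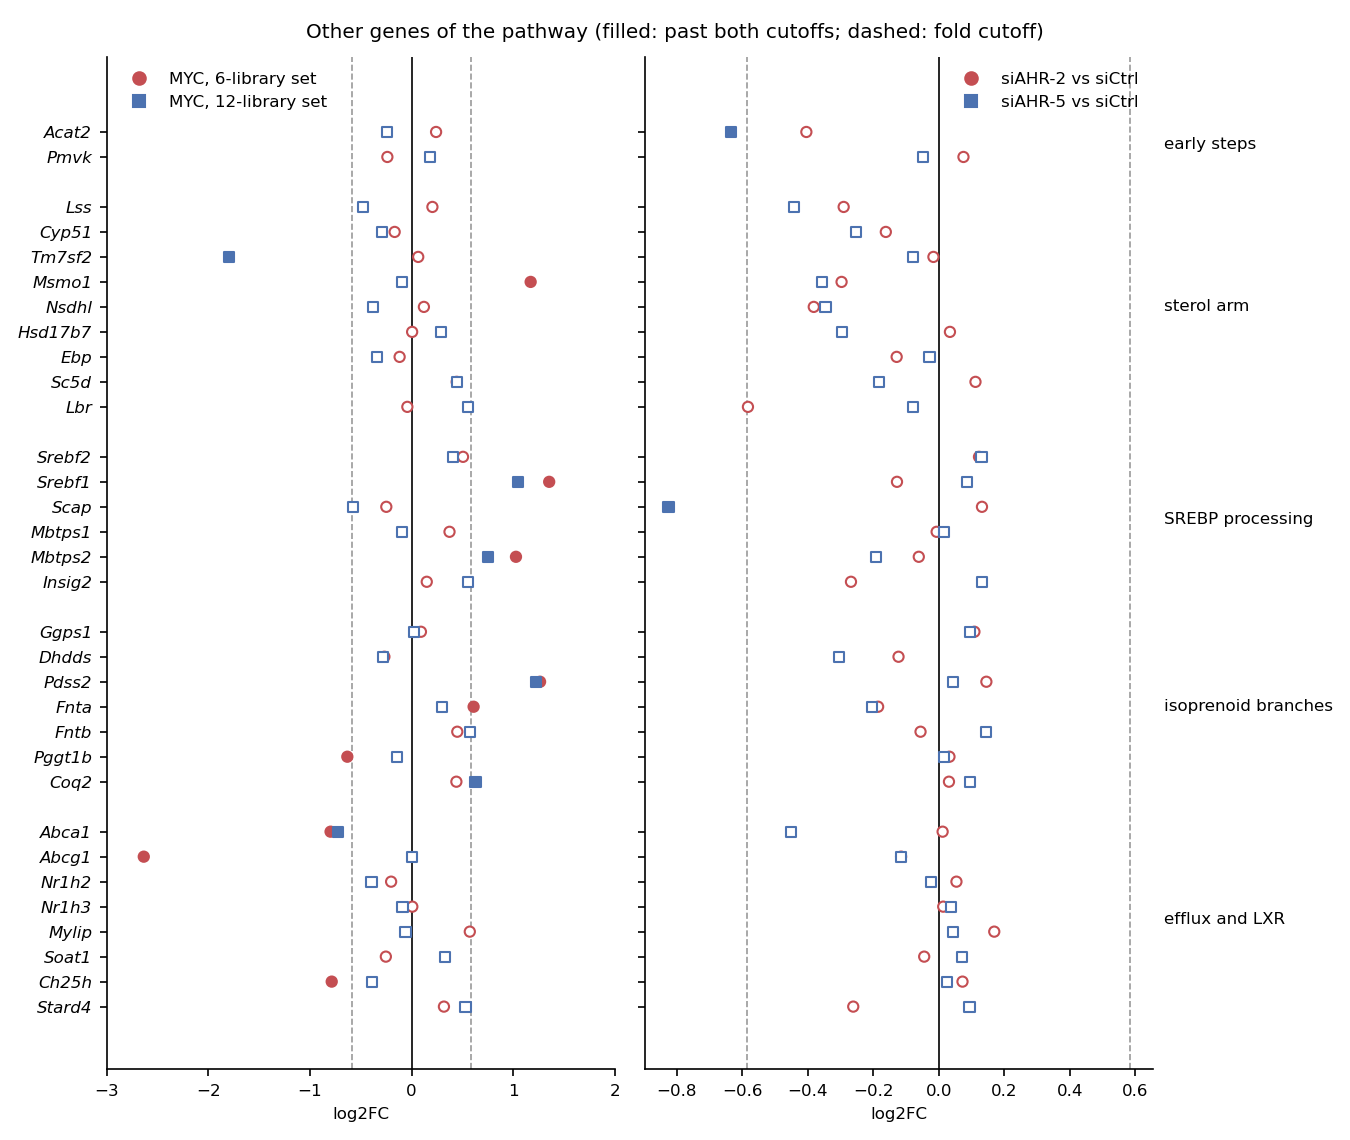
log2FC (limma) of 32 other genes of the pathway by list, with both MYC comparisons on the left and both AHR knockdowns on the right on different horizontal scales, filled symbols past both cutoffs and dashed lines at the 1.5-fold cutoff. Srebf1, Mbtps2 and Pdss2 are filled to the right and Abca1 to the left in both MYC comparisons, and in the knockdown comparisons only Acat2 (-0.63) and Scap (-0.82) are filled, both with siAHR-5.

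The pattern of the 8 genes over libraries was described by their mean profile, each gene centred and scaled within a set. Of the 5 other genes most like it, by the mean of Pearson's r over the 6 and over the 12 libraries, 4 were Apex1 (0.967), Gemin4 (0.966), Cirh1a (0.961) and Usp10 (0.958). Among the members themselves, r with this profile was highest for Fdps (0.962) and Hmgcs1 (0.961), lower for Idi1, with r of 0.913 over the 6 and 0.237 over the 12 libraries. Each member is part of the profile, which raises its r, so these values do not compare with those of the other genes. For Sqle and Insig1 the sets had opposite signs, with r of -0.305 and 0.838 for Sqle and of -0.506 and 0.437 for Insig1. Libraries of a group share their condition, so the libraries are not independent points, and no test was made.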

How the data were processed

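The members and the lists were chosen with earlier results of these data known. Poly-A RNA of 18 libraries was sequenced. Per the paper's methods and the submitters' processing notes, the authors aligned reads to rn6 with HISAT2 2.1.0 and normalized counts with DESeq2. The read counter is not given in the sources used here. The authors deposited log2 normalized values of 13188 genes, labelled log CPM, but off the log scale a library's values sum to 86.3 to 161 times what CPM would give. The transformation and the depth are unknown, and columns without a sample numbered 0.

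The leading principal component (74.7% of the variance) separated the 2 sets, so comparisons stayed within a set. Each was fitted on its own groups with limma 3.58.1 (R 4.3.3, mean-variance trend) on all 13188 genes, with Benjamini-Hochberg adjustment. A gene passed at a fold of at least 1.5 in either direction and an adjusted p of at most 0.01. The text names the 8 members and up to 4 genes of each list with the largest log2FC in either MYC comparison. It also names 4 of the 5 genes most like the members' profile. Srebf2 and Lss stand beside these and were chosen after their values were seen. Of the sterol arm list 1 gene, and of the genes like the profile 1 gene, are not reported here, and the list was counted without the former. Pdss1, Krt18, Plin1 and Alb were not analysed here. Promoters came from RefSeq (GRCr8), searched over 250 bases. Alternatives were the cutoff, all 12 libraries in a single fit, no trend, quantile normalization, median centring, a mean log2 value of at least 1 or 5, a pseudocount of 1, blocking on replicate number and leaving out single libraries.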

Additional observations from a re-analysis of the deposited data

Results flagged for a closer look

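The log2FC of Mvk with MYC differed between the sets of libraries, by -0.74 (12-library set minus 6-library set, limma adjusted p = 2.35e-06), and it was above 0 in both sets. By the labels the transfected group also differs between the sets, so MYC and transfection cannot be told apart in this difference. Insig1 responded differently to the 2 siRNAs against AHR, with a difference of 0.70 (siAHR-5 minus siAHR-2, limma adjusted p = 4.33e-04), and all 3 libraries with siAHR-2 lay below all 3 with siAHR-5.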

How the results depend on the processing

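Over all alternatives, 752 values of the 8 genes were recomputed. Of these, 707 kept their direction and their side of the cutoffs, 42 newly passed, 1 no longer passed and 2 changed sign. Among the 42, 30 passed under the looser cutoff of an adjusted p below 0.05 with no fold cutoff. At an adjusted p below 0.05 with no fold cutoff, 8 of the 8 genes passed in the 6-library set, 4 in the 12-library set, 6 with siAHR-2, 8 with siAHR-5, 8 between the siRNAs and 6 in the difference between MYC effects. Over the other alternatives these counts ranged from 6 to 8, 3 to 7, 5 to 7, 7 to 8, 7 to 8 and 6 to 7. With the replicate number as a block, 0 genes passed with siAHR-2, with limma, out of all 13188, and 6 of the 8 had an unadjusted p under 0.05, against 38.1% of all genes in that fit. Insig1 then had an adjusted p of 0.0126. The block changed no other call of the 8 genes. Correlations of same-numbered libraries were mixed (-0.26 to 0.24), and in no comparison were all 3 above 0.1, so the numbers were not taken as pairs. After quantile normalization, 2 genes passed in the difference between MYC effects. Leaving out each library gave 1 to 3 genes there, as Fdps or Hmgcs1 crossed the fold cutoff, with 3 without myc-/- + MYC replicate 1 and 2 without myc-/- siCtrl replicate 2 or 3, myc-/- replicate 1 or 3 or any 1 replicate of myc-/- + MYC siCtrl. Idi1 with siAHR-2 had a log2FC of 0.0292 after quantile normalization (adjusted p = 0.571) and 0.0222 without myc-/- + MYC siCtrl replicate 1, while leaving out each library in turn gave -0.0514 to 0.0222. Leaving out each library gave 2 to 3 genes with siAHR-5. For the other genes of the pathway, the same alternatives were added after seeing the data: of 381 values of the 24 calls, 369 still passed, 12 did not and 0 changed sign. Those that did not were Fnta and Pggt1b in 1 alternative each, Coq2 without myc-/- replicate 3 (0.58), Abca1 in the larger set without either of myc-/- replicates 1 and 3 or any of myc-/- + MYC siCtrl, and, for the difference between MYC effects, Mylip after median centring (-0.55) and Lbr after quantile normalization or without myc-/- replicate 2 or myc-/- + MYC siCtrl replicate 1 (0.55 to 0.58). The depth is unknown, so its limit on these values cannot be given.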
